A study of Mus musculus with 112 samples.

Results

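The array probes described here read genes of the circadian clock and its output, grouped for higher levels in mouse liver with the fibrates and not with tesaglitazar; 1 of them, Dbp, was called higher than saline in liver with bezafibrate only. They are 4 of the 45281 probes on the array. ILMN_3029489 and ILMN_3102736 both read Ciart (chr3:95878500-95882257 in GRCm38.p6), ILMN_2616226 reads Dbp (chr7:45705100-45710203) and ILMN_1240264 reads Usp2 (chr9:44067021-44095627). The probes are features of 3 genes, so the pair of Ciart probes is not independent. The members were chosen by measured values of the same arrays, namely their liver differences from saline and from tesaglitazar and their bezafibrate difference in prefrontal cortex. Those values are therefore given as descriptions without a test.

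All groups were male C57BL/6J mice dosed by mouth at 9 am on each of 8 days. They received fenofibrate, a PPARα agonist, at 150 mg/kg, tesaglitazar, a dual PPARα and PPARγ agonist, at 1.5 mg/kg, bezafibrate, a pan-PPAR agonist, at 75 mg/kg, or saline as the vehicle control; per the labels the drugs were suspended in saline with Tween-80. Liver, prefrontal cortex and amygdala were profiled on Illumina bead arrays, 1 array per mouse number and tissue. After the 2 libraries named next were left out, liver had 9 fenofibrate, 8 tesaglitazar, 9 bezafibrate and 9 saline arrays, prefrontal cortex had 9, 9, 10 and 10 in the same order, and amygdala had 9, 10, 9 and 9. The 3 drugs were given at different doses, so their responses are set side by side and the fibrates are not compared with each other.

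In liver, the libraries labelled tesaglitazar 6 and saline 4 stood in each other's group. On an axis that sets the mean of the other saline livers at 0 and that of the other tesaglitazar livers at 1, the tesaglitazar library lay at 0.0236 and the saline library at 0.989. Liver values below leave both out, and the members' differences are also given with both as labelled. With them as labelled, the probes called in liver numbered 286 in place of 632 for bezafibrate minus saline and 2772 in place of 4863 for fenofibrate minus tesaglitazar. The sums of hepatocyte and neuron markers set liver apart from the brain regions, though single marker probes did not all do so. The summed intensity of 5 hepatocyte marker probes was 63043 to 115530 in liver. On brain arrays that sum went up to 28298 (prefrontal) and 29022 (amygdala), where the Ttr probe alone reached 27897 and 28610. Of the 5, the albumin probe was detected on 0 of 38 prefrontal and 0 of 37 amygdala arrays. It was dim in liver too, with a median raw intensity of 146. Ttr, however, was detected on 37 and 37 of these arrays, and Apoa1 on 34 and 37. Cyp2e1 was detected on 6 and 3, and Serpina1c on 2 and 0. The 13 neuron marker probes summed to 32949 to 55439 in the brain regions against 1119 to 1716 in liver. Tesaglitazar livers had a hepatocyte marker sum of 63043 to 93815, against 85797 to 115522 in saline livers. Fenofibrate livers had 79185 to 109186 and bezafibrate livers 89019 to 115530. Of the 5 hepatocyte probes, 2 were called lower with tesaglitazar (23.8% of all probes were), 2 with fenofibrate (15.3%) and 0 with bezafibrate (1.66%). The part of these markers in the results was not tested. All 4 probes were detected on every array, in every tissue.

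The mammalian circadian clock is a transcriptional feedback loop. The activators CLOCK and BMAL1 (encoded by Arntl) bind E-box sequences and drive the Per and Cry genes, whose products repress that activity, while REV-ERBα (Nr1d1) represses Arntl. Ciart encodes a repressor of CLOCK and BMAL1, Dbp encodes a transcription factor of the PAR bZIP family that binds D-box sequences in output genes, and Usp2 encodes a ubiquitin-specific protease with a strongly rhythmic transcript in mouse liver. Transcripts of this kind rise and fall steeply over the day, so a difference between groups in the hour of collection or in the phase of the rhythm would also appear as a difference in level. The sources used here do not give the time of collection.

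The sequence upstream of Ciart is shown because it carries the E-box, the element through which CLOCK and BMAL1 act. The stretch is chr3:95882258-95882478 of GRCm38.p6 on the minus strand, directly before the annotated gene start, from RefSeq, with the motif CACGTG in capitals.

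Ciart: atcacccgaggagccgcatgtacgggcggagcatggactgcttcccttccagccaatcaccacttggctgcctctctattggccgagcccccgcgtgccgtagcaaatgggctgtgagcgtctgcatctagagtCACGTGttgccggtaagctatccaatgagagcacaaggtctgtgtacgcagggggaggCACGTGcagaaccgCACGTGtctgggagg

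The motif, which reads the same on both strands, began 87, 29 and 15 bases before that start. Among 32851 promoter windows of 300 bases, 7.15% held at least 1 copy and 0.0883% held 3 or more. The windows of Dbp and Usp2 held none, but that of Dbp lay mostly and that of Usp2 wholly inside the annotated gene. The D-box letters TTATGTAA or TTACGTAA, searched on both strands and present in 1.06% of windows, were not in the window of any of the 3 genes, nor was a direct repeat of AGGTCA with 1 base between the copies, the kind of element PPARs bind (0.0396% of windows). In the list of 14 clock and output genes used below, 4 of the 13 genes with a window held CACGTG: Ciart, Cry1, Per1 and Tef.

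Levels are given on the log2 scale of normalised intensity within a tissue, with the lowest, the median and the highest array of a group, and a difference is a difference of group means on that scale with its standard error. In liver the 4 probes were higher under both fibrates than under saline. With fenofibrate the differences were 1.49 ± 0.21 and 1.53 ± 0.24 for the Ciart probes ILMN_3029489 and ILMN_3102736, 0.34 ± 0.15 for Dbp and 1.84 ± 0.30 for Usp2, which are 2.82, 2.88, 1.27 and 3.58 times the saline level. With bezafibrate they were 1.81 ± 0.21, 1.92 ± 0.24, 0.69 ± 0.15 and 1.91 ± 0.30, or 3.50, 3.77, 1.61 and 3.76 times. With tesaglitazar they were -0.06 ± 0.22, -0.15 ± 0.24, -0.78 ± 0.15 and -0.76 ± 0.31. The size of the Ciart differences depended on the processing: without background correction the pair had 0.91 and 1.02 with fenofibrate and 1.14 and 1.32 with bezafibrate, and with the authors' deposited values 0.69 and 0.81 with fenofibrate and 0.88 and 1.07 with bezafibrate. The tesaglitazar difference of Usp2 was -0.48 with the authors' values.

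Ciart probe ILMN_3029489 lay at 6.61, 7.63 and 8.13 in fenofibrate livers and at 5.37, 5.96 and 6.95 in tesaglitazar livers. It lay at 7.59, 7.95 and 8.44 in bezafibrate livers, and at 5.05, 5.91 and 6.95 in saline livers. Every bezafibrate array and 8 of 9 fenofibrate arrays were above the highest saline array, and the tesaglitazar and saline ranges overlapped almost completely. The second Ciart probe, ILMN_3102736, had the same order, at 6.93, 8.23 and 8.33 with fenofibrate, 5.56, 6.19 and 7.59 with tesaglitazar, 8.19, 8.48 and 8.80 with bezafibrate, and 5.32, 6.41 and 7.45 with saline. Again all bezafibrate arrays and 8 of 9 fenofibrate arrays exceeded all saline arrays.

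Usp2 had the widest spread among animals. It lay at 9.11, 10.37 and 10.62 in fenofibrate livers, 6.64, 7.07 and 9.28 in tesaglitazar livers, 9.63, 10.40 and 10.89 in bezafibrate livers, and 7.11, 8.28 and 9.58 in saline livers. All 9 bezafibrate and 8 of 9 fenofibrate arrays were above the highest saline array. The tesaglitazar group's SD was 1.03 and the saline group's 0.81, against 0.45 with fenofibrate and 0.34 with bezafibrate.

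Dbp, the brightest of the 4, differed from the label. It lay at 11.40, 11.87 and 12.16 in fenofibrate livers, 9.88, 10.62 and 11.46 in tesaglitazar livers, 12.01, 12.23 and 12.38 in bezafibrate livers, and 10.85, 11.52 and 11.93 in saline livers. The bezafibrate arrays were all above the saline arrays, but only 3 of 9 fenofibrate arrays were, and the fenofibrate difference missed the threshold of an adjusted p of 0.05 that the call of a raised probe uses. Its group means were 11.85 with fenofibrate, 10.73 with tesaglitazar, 12.20 with bezafibrate and 11.51 with saline, so the label of a fibrate-raised probe holds for Dbp with bezafibrate and not by that threshold with fenofibrate.

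**Figure D1:**
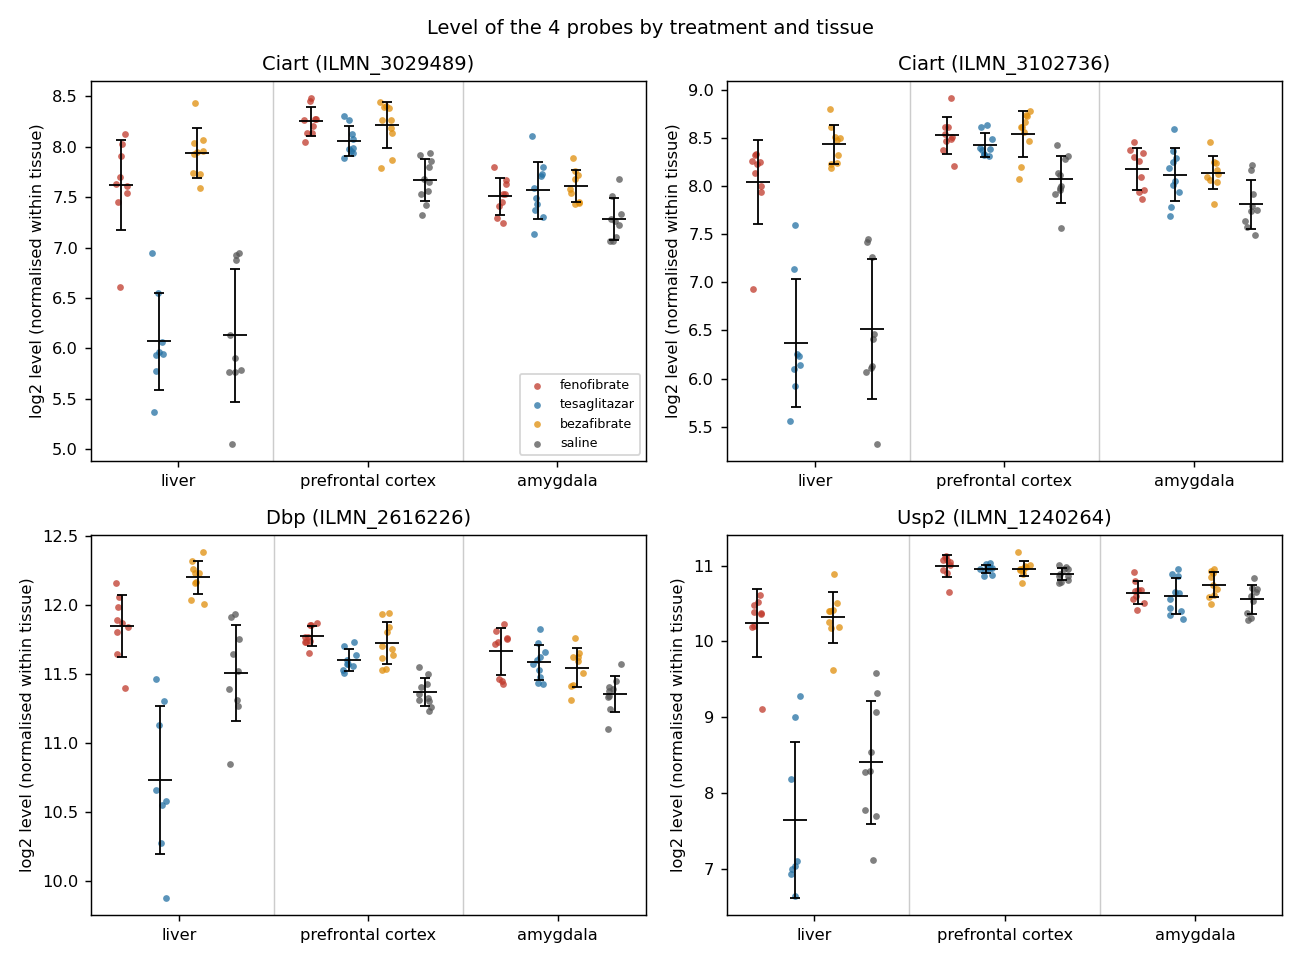
Log2 normalised intensity (vertical axis) of the 4 probes in fenofibrate, tesaglitazar, bezafibrate and saline mice, by tissue; points are arrays, bars group means and error bars the SD. In liver the fibrate groups sit above saline for both Ciart probes and Usp2, with group means of 7.62 and 7.94 against 6.13 for Ciart ILMN_3029489, and the distances in the brain regions are smaller.

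Of the 4 members, 3 were called higher with fenofibrate in liver (14.7% of the 19773 probes tested), 4 with bezafibrate (1.54%) and 0 with tesaglitazar (22.5%). Dbp and Usp2 were called lower with tesaglitazar (23.8%). These counts follow from how the members were chosen and nothing is read from them. All bezafibrate arrays exceeded all saline arrays for the 4 members, which was so for 0.233% of probes.

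Set against tesaglitazar directly, fenofibrate livers were higher by 1.55 ± 0.22 and 1.67 ± 0.24 for the Ciart probes, 1.12 ± 0.15 for Dbp and 2.60 ± 0.31 for Usp2. Bezafibrate livers were higher than tesaglitazar livers by 1.87 ± 0.22, 2.06 ± 0.24, 1.47 ± 0.15 and 2.67 ± 0.31. All 4 were called in both (11.9% and 21.8% of probes were called higher), which the choice of members fixed. These differences share their arrays with those from saline. With the authors' values those of the Ciart pair were 0.73 and 0.87 for fenofibrate and 0.91 and 1.13 for bezafibrate. With the libraries tesaglitazar 6 and saline 4 as labelled, the differences from saline of the 4 members became 1.57, 1.63, 0.43 and 1.998 with fenofibrate, 0.03, -0.01, -0.66 and -0.52 with tesaglitazar, and 1.88, 2.01, 0.78 and 2.07 with bezafibrate. Dbp then passed the threshold with fenofibrate (10.1% of probes higher) and Usp2 no longer did with tesaglitazar (19.1% lower).

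The order around the edge of the list was as follows. In liver 234 probes were called higher with both fibrates, of which 170 were also called higher with tesaglitazar, 5 were called lower and 59 neither. Ordered by the smaller of the fibrate rises, the probes not raised by tesaglitazar began with Usp2 at 1.84 and the Ciart probes at 1.53 and 1.49. Just outside the list were the third Ciart probe, ILMN_1236079, at 1.29, a Pcsk4 probe at 1.21 and a probe of Noct, a rhythmically expressed gene, at 1.21. Dbp was not among the 234.

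In prefrontal cortex both Ciart probes and Dbp were higher with fenofibrate than with saline. The saline arrays of this tissue also entered the bezafibrate comparison that helped choose the members, so the p-values against saline here are not independent of that choice. Ciart probe ILMN_3029489 lay at 8.05, 8.26 and 8.48 in fenofibrate mice and at 7.32, 7.66 and 7.94 in saline mice, a difference of 0.58 ± 0.09 (limma, adjusted p = 0.000188). Ciart probe ILMN_3102736 lay at 8.21, 8.51 and 8.91 with fenofibrate and at 7.57, 8.05 and 8.42 with saline, a difference of 0.46 ± 0.09 (limma, adjusted p = 0.00325). Dbp lay at 11.65, 11.77 and 11.87 with fenofibrate and at 11.23, 11.34 and 11.55 with saline, a difference of 0.41 ± 0.06 (limma, adjusted p = 0.00013). All 9 fenofibrate arrays exceeded all 10 saline arrays for Dbp and Ciart ILMN_3029489, which held for 0.0607% of probes, and 7 of 9 did for Ciart ILMN_3102736. With the authors' values the Ciart differences were 0.36 and 0.30, and both passed (limma, adjusted p = 0.000332 and 0.00366).

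Usp2 did not follow them there. It lay at 10.65, 11.04 and 11.13 in fenofibrate mice and at 10.78, 10.87 and 11.01 in saline mice, and the difference of 0.11 ± 0.05 did not pass (limma, adjusted p = 0.239; 95% interval -0.003 to 0.21). In all, 3 of the 4 members were called higher with fenofibrate in prefrontal cortex, where 2.55% of probes were.

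With bezafibrate the prefrontal differences from saline were 0.54 ± 0.08 for Ciart ILMN_3029489, 0.47 ± 0.09 for Ciart ILMN_3102736, 0.35 ± 0.05 for Dbp and 0.07 ± 0.05 for Usp2. The bezafibrate arrays lay at 7.79, 8.26 and 8.44 for Ciart ILMN_3029489, at 8.07, 8.61 and 8.77 for Ciart ILMN_3102736, at 11.52, 11.69 and 11.94 for Dbp and at 10.77, 10.96 and 11.18 for Usp2. For both Ciart probes and Dbp 8 of 10 bezafibrate arrays were above the highest saline array, against 1 of 10 for Usp2. The Ciart pair and Dbp were the 3 probes called in that comparison (0.013%), which is part of what chose them. The call of Ciart ILMN_3102736 was kept in 15 of the 38 fits that left out 1 array, and 0 probes were called when only the 2 groups were fitted or when either set of mice was taken alone.

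With tesaglitazar the prefrontal differences ran the same way but did not pass the test. They were 0.39 ± 0.09 for Ciart ILMN_3029489 (limma, adjusted p = 0.203), 0.36 ± 0.09 for Ciart ILMN_3102736 (limma, adjusted p = 0.291), 0.23 ± 0.06 for Dbp (limma, adjusted p = 0.232) and 0.07 ± 0.05 for Usp2 (limma, adjusted p = 0.876). The unadjusted 95% intervals were 0.22 to 0.56, 0.17 to 0.55, 0.12 to 0.34 and -0.04 to 0.18. The tesaglitazar arrays lay at 7.89, 7.99 and 8.31 for Ciart ILMN_3029489 and at 11.50, 11.57 and 11.73 for Dbp, and for each of them 7 of 9 arrays were above every saline array. No probe was called in that comparison by limma (0%), although 1495 had an unadjusted p under 0.05. When arrays were instead aligned by their medians, the median of all probes itself shifted by 0.11 and 3 members passed, Ciart ILMN_3029489 at 0.55, Ciart ILMN_3102736 at 0.52 and Dbp at 0.38. Relative to that shift these were 0.44, 0.41 and 0.27.

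Directly against tesaglitazar in prefrontal cortex, Dbp was higher with fenofibrate by 0.17 ± 0.06 (limma, adjusted p = 0.0473), where 8.1% of probes were called (4.58% higher, 3.51% lower). That call was lost with median centring (0.05, adjusted p = 0.759), in each of the 2 sets of mice taken alone, and in 20 of the 38 fits that left out 1 array. The Ciart differences between fenofibrate and tesaglitazar were 0.19 (95% interval 0.02 to 0.37, adjusted p = 0.168 by limma) and 0.10 (-0.10 to 0.29, adjusted p = 0.585), and that of Usp2 was 0.04 (-0.07 to 0.15, adjusted p = 0.737). Between bezafibrate and tesaglitazar none of the 4 passed (0.0173% of probes called, 0.00433% higher), with differences of 0.16, 0.11, 0.12 and 0.004 and limma adjusted p from 0.805 to 0.998.

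**Figure D2:**
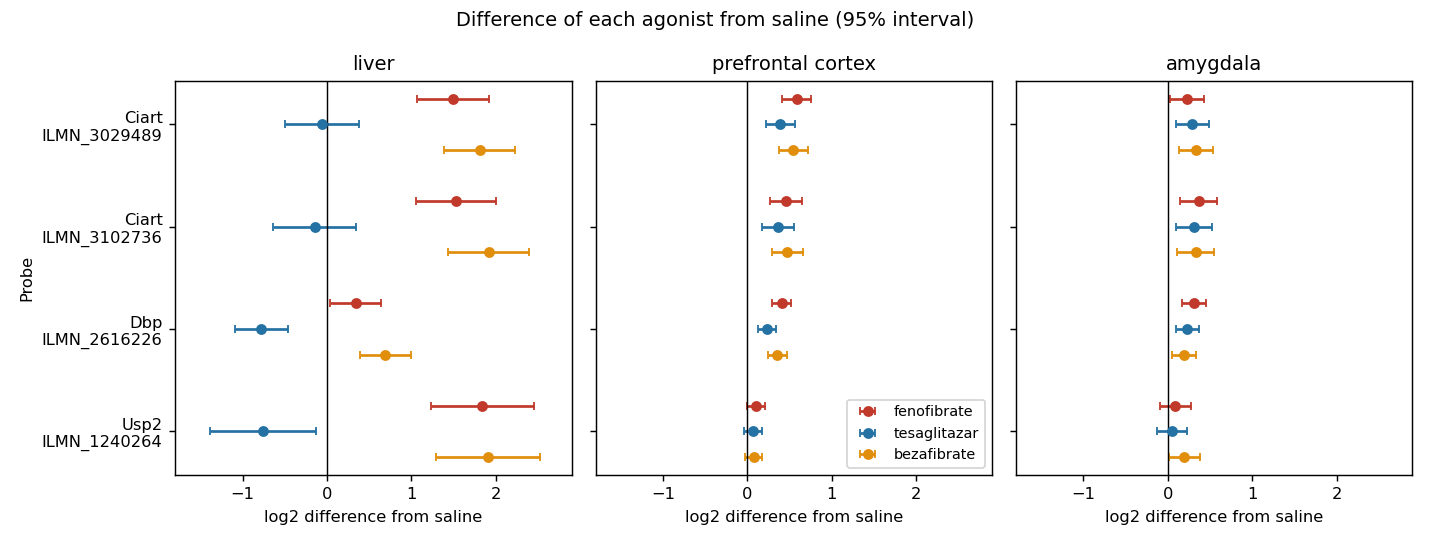
Difference from saline in log2 normalised intensity for each probe and drug in the 3 tissues; points are differences of group means and bars the unadjusted 95% intervals. The fibrate differences are about 1.5 to 1.9 in liver for the Ciart probes and Usp2 and at most 0.58 in the brain regions, and the tesaglitazar difference of Dbp is -0.78 in liver and 0.23 in each brain region.

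In amygdala none of the 4 passed the test with any drug. The differences for Ciart ILMN_3029489, Ciart ILMN_3102736, Dbp and Usp2 were 0.23, 0.37, 0.31 and 0.09 with fenofibrate, with limma adjusted p of 0.479, 0.234, 0.219 and 0.868. With tesaglitazar they were 0.29, 0.31, 0.23 and 0.05, with limma adjusted p of 0.626, 0.626, 0.501 and 0.974. With bezafibrate they were 0.33, 0.33, 0.19 and 0.20, with limma adjusted p of 0.747, 0.769, 0.846 and 0.965. All 12 values were above 0 and 10 of the 12 unadjusted 95% intervals lay above 0, but limma called 0 probes in any of these comparisons (0%). The 12 values share the saline arrays and come from probes that vary together within groups, so they are not independent. Of 23803 probes, 2064, 1513 and 1216 reached an unadjusted p under 0.05 with fenofibrate, tesaglitazar and bezafibrate, of which 1102, 828 and 548 were higher than with saline.

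Dbp, with the smallest adjusted p of the members, lay at 11.42, 11.73 and 11.86 in fenofibrate amygdala, 11.43, 11.59 and 11.82 with tesaglitazar, 11.31, 11.60 and 11.76 with bezafibrate and 11.10, 11.37 and 11.57 with saline. Ciart ILMN_3102736 lay at 7.86, 8.26 and 8.46, 7.68, 8.12 and 8.59, 7.81, 8.13 and 8.45, and 7.49, 7.75 and 8.22 in the same order of groups. All 4 ranges overlapped for both probes. The remaining pair, Ciart ILMN_3029489 and Usp2, spanned 7.06 to 8.11 and 10.29 to 10.96 over all arrays. Neither fibrate differed from tesaglitazar by more than 0.15, and no limma adjusted p was under 0.722 (0% of probes called); for Dbp, fenofibrate minus tesaglitazar was 0.08 (95% interval -0.06 to 0.22).

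The response of each transcript was set against itself across tissues in 1 fit of all arrays. The response in liver was larger than that in prefrontal cortex by 0.85 ± 0.20, 0.96 ± 0.22 and 1.47 ± 0.24 for the Ciart pair and Usp2 with fenofibrate, and by 1.17, 1.29 and 1.57 with bezafibrate. For Dbp the fenofibrate response in liver minus that in prefrontal cortex was -0.16 ± 0.13 and the bezafibrate one 0.19. With tesaglitazar all 4 were negative, at -0.44, -0.50, -0.90 and -0.76. Against amygdala the values were 1.21, 1.05, -0.06 and 1.49 with fenofibrate, -0.34, -0.45, -0.90 and -0.74 with tesaglitazar, and 1.39, 1.44, 0.37 and 1.44 with bezafibrate. With the authors' values the Ciart pair had 0.34 and 0.50 with fenofibrate and 0.55 and 0.75 with bezafibrate against prefrontal cortex, and 0.58 and 0.59 with fenofibrate and 0.71 and 0.87 with bezafibrate against amygdala. No test is given for these, since the liver response chose the probes.

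Between prefrontal cortex and amygdala, where the rule used neither the fenofibrate nor the tesaglitazar response, no member's response passed the test of a difference. The prefrontal saline arrays did enter the bezafibrate comparison that helped choose the members, so these p-values are not fully independent of that choice. The fenofibrate differences were 0.36 ± 0.20 (limma, adjusted p = 0.489) and 0.09 ± 0.22 (adjusted p = 0.957) for the Ciart probes, 0.11 ± 0.13 (adjusted p = 0.851) for Dbp and 0.02 ± 0.24 (adjusted p = 0.995) for Usp2, where 0.659% of probes were called. With tesaglitazar they lay between -0.001 and 0.10, and 0% of probes were called by limma, with 903 at an unadjusted p under 0.05. The call of fenofibrate in one brain region and not in the other is thus not shown to be a difference between them.

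The level in saline mice also depended on the tissue. Usp2 was lower in liver than in prefrontal cortex, with a difference of -1.88 ± 0.17 (limma, adjusted p = 3.77e-19), and than in amygdala with a difference of -1.27 ± 0.17 (adjusted p = 8.1e-11). The Ciart probes were lower in liver than in prefrontal cortex, at -0.69 ± 0.14 (adjusted p = 7.32e-06) and -0.71 ± 0.16 (adjusted p = 2.63e-05). Dbp was higher in liver, by 0.23 ± 0.09 over prefrontal cortex (adjusted p = 0.0127) and by 0.50 ± 0.09 over amygdala (adjusted p = 4.19e-07). The first call was lost with the 2 livers as labelled (0.16, adjusted p = 0.107) and with the authors' deposited values (0.17, adjusted p = 0.0829), and the second with median centring (0.24, adjusted p = 0.056) and the authors' values (0.18, adjusted p = 0.0705). The saline livers also entered the comparisons that chose the members. In this comparison 80.1% of probes were called between liver and prefrontal cortex (41.6% higher in liver) and 81.4% between liver and amygdala, so such a call is no mark of these genes.

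Prefrontal cortex was above amygdala for all 4 in saline mice, by 0.69 (adjusted p = 3.74e-05) and 0.56 (adjusted p = 0.00262) for the Ciart probes, 0.27 (adjusted p = 0.0118) for Dbp and 0.61 (adjusted p = 0.00221) for Usp2, in limma's fit with 33.5% of probes called. Here too the prefrontal saline arrays had entered the bezafibrate comparison that helped choose the members. For Ciart, liver minus amygdala did not pass, at -0.0009 (adjusted p = 0.995) and -0.15 (adjusted p = 0.389), but was called at -1.01 and -1.15 with median centring (adjusted p = 3.97e-09 and 3.44e-10) and at -0.60 and -0.72 with the authors' values (adjusted p = 2.38e-13 and 6.12e-13). These levels depended on how tissues were scaled. Under median centring the median probe differed by -0.12 for liver minus prefrontal cortex, -0.28 for liver minus amygdala and -0.15 for prefrontal cortex minus amygdala. In the main fit these medians were 0.05, 0.04 and -0.001. With median centring, prefrontal cortex minus amygdala lost its call for Ciart ILMN_3102736 (0.22, limma adjusted p = 0.262) and Usp2 (0.30, adjusted p = 0.193) and turned to -0.027 for Dbp (adjusted p = 0.867). With the authors' values it lost its call for Ciart ILMN_3102736 (0.13, adjusted p = 0.157) and Dbp (0.011, adjusted p = 0.913). The order of Usp2, liver below both brain regions, did not turn under any alternative tried.

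Other probes of the same genes gave a further view. The third Ciart probe, ILMN_1236079, was higher by 1.29 with fenofibrate and 1.52 with bezafibrate in liver, and differed by -0.07 with tesaglitazar. In prefrontal cortex it differed by 0.22 with fenofibrate (limma, adjusted p = 0.213), 0.31 with tesaglitazar and 0.39 with bezafibrate, none of which passed. The other Usp2 probes, ILMN_2466316 and ILMN_2482390, were higher in liver by 0.89 and 1.02 with fenofibrate and by 1.23 and 0.82 with bezafibrate, against -0.06 and -0.12 with tesaglitazar. All 3 Usp2 probes thus rose with both fibrates in liver, while the tesaglitazar difference was -0.76 on ILMN_1240264 and near 0 on the others.

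The wider clock was read from a list of 14 clock and output genes with 28 probes on the array; leaving out every probe of Ciart, Dbp and Usp2, 14 probes of 8 genes were tested in liver. With fenofibrate 5 of the 14 rose and 4 fell, in a comparison where 30% of all probes were called (15.3% lower); their median difference was 0.04, against -0.01 for all probes. With tesaglitazar 1 rose and 5 fell, where 46.2% of probes were called (median -0.32, against -0.01). With bezafibrate 6 rose and 3 fell, where 3.2% were called (1.66% lower; median 0.30, against 0.002). Directly against tesaglitazar, 7 were higher and 3 lower with fenofibrate (24.6% of probes called, 12.7% lower), and 10 were higher and 3 lower with bezafibrate (43.2% called, 21.4% lower).

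The probes that rose with both fibrates were of the Per genes. Per1, Per2 and Per3 encode period proteins, which repress CLOCK and BMAL1. The Per1 probes rose by 0.71 and 0.67 with fenofibrate and by 0.98 and 0.94 with bezafibrate, and with tesaglitazar they differed by -0.45 and -0.27. The Per2 probes rose by 0.84 and 0.75 with fenofibrate and by 0.99 and 0.93 with bezafibrate, and fell by 0.74 and 0.71 with tesaglitazar. Per3 probe ILMN_1257393 rose by 0.75 with fenofibrate and 0.68 with bezafibrate, and differed by -0.12 with tesaglitazar, while the other Per3 probe, ILMN_1251591, differed by 0.03, 0.08 and -0.21 with fenofibrate, bezafibrate and tesaglitazar and did not pass.

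The genes of the activators, Arntl and Clock, fell with both fibrates. Arntl differed by -0.89 with fenofibrate, -0.33 with tesaglitazar and -1.01 with bezafibrate. The Clock probes had differences of -0.34 and -0.49 for fenofibrate and -0.49 and -0.60 for bezafibrate, and 1 of them, ILMN_2610973, rose by 0.29 with tesaglitazar (limma, adjusted p = 0.0313). Nr1d1 fell with fenofibrate, at -0.90, and with tesaglitazar, at -0.61, and with bezafibrate the difference of -0.25 did not pass. Tef, a relative of Dbp in the PAR bZIP family, fell with tesaglitazar on both its probes, at -0.89 and -0.84, and rose on 1 of them, by 0.73, with bezafibrate.

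In prefrontal cortex 17 probes of 10 genes other than Ciart, Dbp and Usp2 were tested, and with fenofibrate 4 rose and 0 fell, where 5.98% of all probes were called (3.43% lower; median 0.23, against -0.01 for all probes). The 4 were all of Per genes: Per1 at 0.40 (limma, adjusted p = 0.0135), Per2 at 0.54 (adjusted p = 0.000704) and 0.58 (adjusted p = 0.00107), and Per3 at 0.39 (adjusted p = 0.00393). Arntl differed by -0.13 (adjusted p = 0.547) and Npas2, a relative of Clock, by -0.23 (adjusted p = 0.0701), and neither passed. With tesaglitazar and with bezafibrate 0 of the 17 passed. In amygdala 0 of 15 probes of 9 genes passed with any drug, and their differences from saline lay between -0.26 and 0.22.

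**Figure D3:**
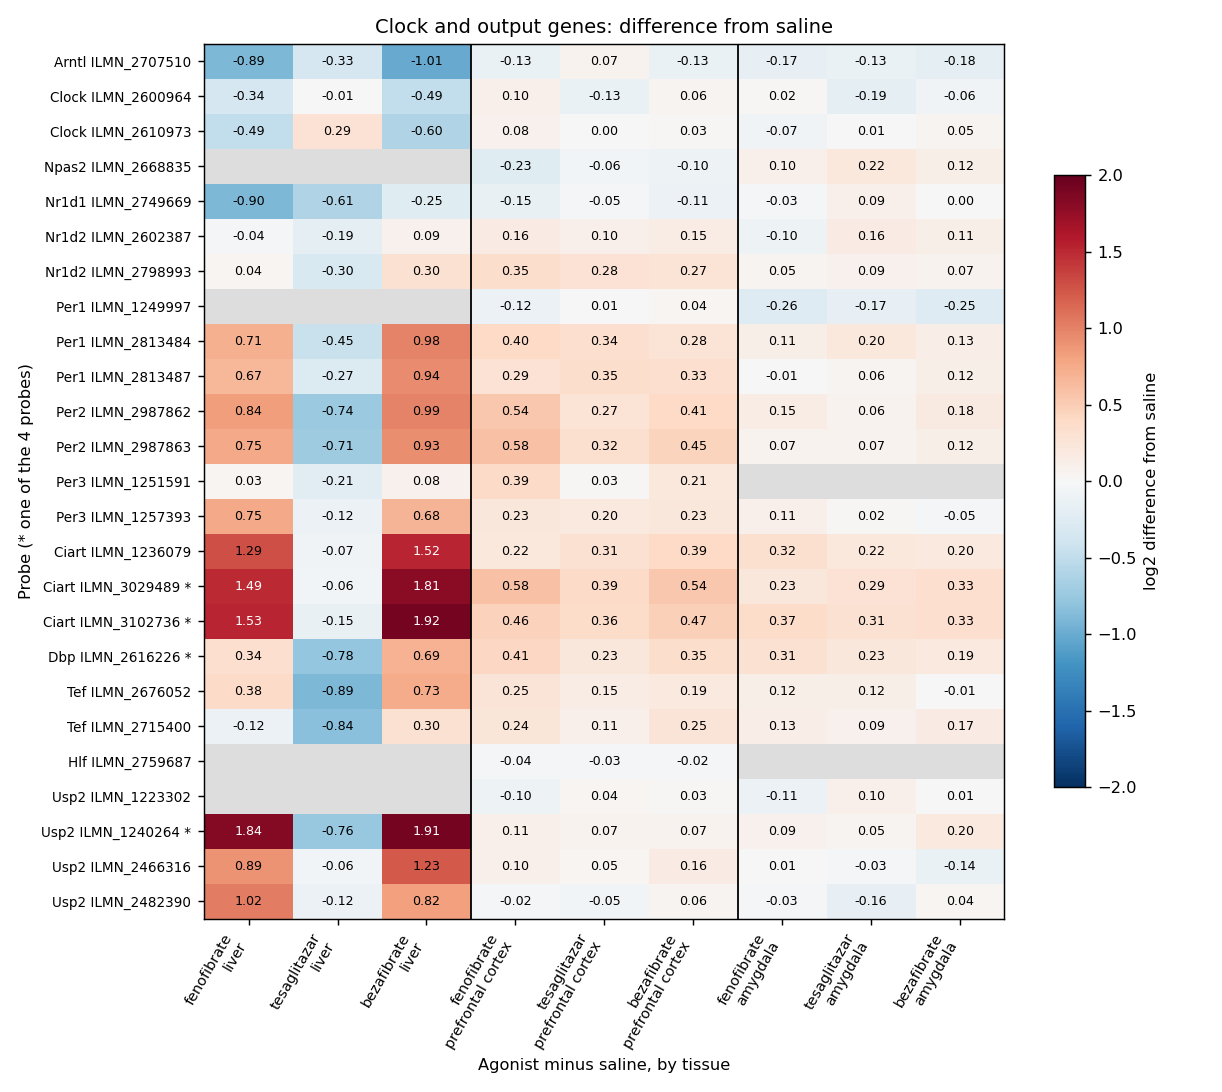
Difference from saline in log2 normalised intensity for the probes of the clock list (rows, members starred) under 3 drugs in 3 tissues (columns); grey cells were not tested. In liver the Per, Ciart and Usp2 rows are positive under both fibrates and the Arntl and Clock rows negative, with Arntl at -0.89 and -1.01.

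Textbook PPARα target genes, which encode enzymes and carriers of fatty acid oxidation and transport, were read on the same liver arrays. Of 37 probes of 25 such genes tested in liver, 30 rose with fenofibrate (median 1.27), 34 rose with tesaglitazar (median 1.75) and 8 rose with bezafibrate (median 0.14), against medians of -0.01, -0.01 and 0.002 over all probes, of which 14.7%, 22.5% and 1.54% were called higher. With tesaglitazar 6 and saline 4 as labelled, 29, 34 and 1 of 38 tested rose, with medians of 1.07, 1.34 and -0.04. The differences of Ciart ILMN_3102736 beside these medians were 1.53 with fenofibrate, -0.15 with tesaglitazar and 1.92 with bezafibrate. In prefrontal cortex 0 of 23 tested PPARα target probes rose and 2 fell with fenofibrate, where 2.55% of all probes were called higher and 3.43% lower.

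Beyond the clock list, the probes whose liver pattern was most like each member's were sought by Pearson correlation over 35 liver arrays and 19773 probes; the arrays share groups, so these values are descriptions. The 2 Ciart members correlated at 0.991 with each other and at 0.978 with the third Ciart probe. Usp2 was closest to Ciart ILMN_3102736, at 0.959, and to Per2, at 0.943. Dbp was closest to a pair of probes of Ngef, which encodes a guanine nucleotide exchange factor, at 0.935 and 0.927. Arntl was anticorrelated with all 4, between -0.69 and -0.87, and Clock probe ILMN_2610973 between -0.82 and -0.89. The other Clock probe, ILMN_2600964, had -0.54 to -0.61, and Nr1d1 had -0.21 to 0.11. Ordered from the highest correlation with Dbp, Arntl ranked 19168 of 19772 probes. The same pairs, picked as the closest in liver, had other values in brain. The Ciart members had 0.924 in prefrontal cortex and 0.714 in amygdala, Usp2 with Ciart ILMN_3102736 had 0.43 and 0.51, Usp2 with Per2 had 0.12 and 0.35, and Dbp with the Ngef probes had 0.22 and -0.11 in prefrontal cortex and 0.58 and 0.64 in amygdala.

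The levels of these probes also went together among arrays of a group. Each array's deviation from its group mean was taken, and 18 relations, 6 pairs of probes in 3 tissues, were tested by permutation within groups (100000 resamples, two-sided, adjusted over the 18). The Ciart pair reads a single gene, and how many pairs of other probes would pass was not computed. Variation shared by all probes of an array was not separated from that of these genes. In liver (n = 35) all 6 passed by permutation. Ciart ILMN_3102736 with Usp2 had r = 0.905 and rho = 0.861 (permutation adjusted p = 3e-05 and 4.5e-05), and r was 0.868 without the 2 farthest arrays. Unadjusted, its r and rho each had a permutation p of 1e-05, the smallest that 100000 resamples can give. Ciart ILMN_3029489 with Dbp had the lowest r, 0.687, with rho = 0.620 (permutation adjusted p = 0.000135 and 0.000652) and r = 0.595 without the 2 farthest. Within mice 1 to 20 and 21 to 40 the liver r lay between 0.551 and 0.968.

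In prefrontal cortex (n = 38) the Ciart probes went together at r = 0.854 and rho = 0.817 (permutation adjusted p = 3e-05 and 4.5e-05). Ciart ILMN_3029489 and Dbp had r = 0.561 (permutation adjusted p = 0.00209), which was 0.226 in mice 1 to 20 and 0.823 in mice 21 to 40. Ciart ILMN_3102736 and Dbp had r = 0.380 and rho = 0.363 (permutation adjusted p = 0.0475 and 0.0428). Without the 2 farthest arrays r fell to 0.208, so the size of r depends on them. The 3 relations with Usp2 had r of 0.224 to 0.287 and did not pass by permutation. With median centring 2 of these 3 passed, Dbp with Usp2 at r = 0.651 (permutation adjusted p = 6.55e-05) and Ciart ILMN_3029489 with Usp2 at r = 0.363 (adjusted p = 0.0377).

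In amygdala (n = 37) r lay between 0.339 and 0.686, and 5 of the 6 relations passed by permutation. The exception, Dbp with Usp2, had r = 0.339 (permutation adjusted p = 0.0501) and rho = 0.352 (adjusted p = 0.0428), and its r passed with median centring (0.480, adjusted p = 0.00206) and without background correction (0.339, adjusted p = 0.0499). Between tissues no such relation passed: over 12 comparisons of the same probe in different tissues under the same mouse number (n = 32 to 35), r lay between -0.282 and 0.297, and the lowest permutation adjusted p was 0.414 for r and 0.320 for rho.

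**Figure D4:**
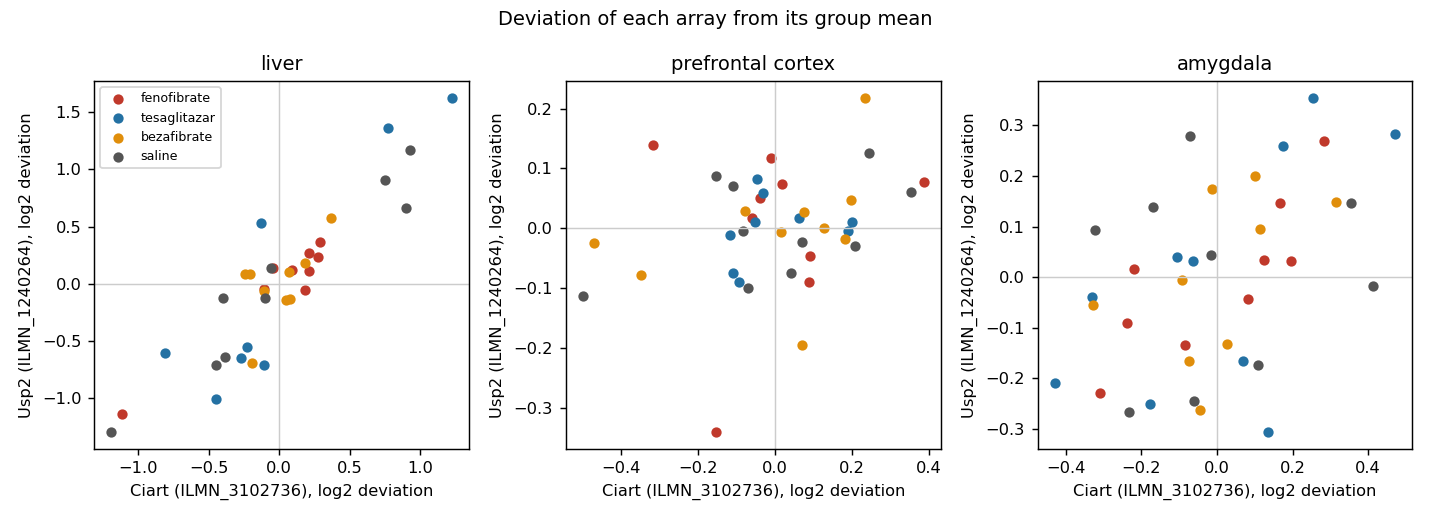
Deviation of each array from its group mean in log2 normalised intensity, Usp2 against Ciart ILMN_3102736, in the 3 tissues; each point is 1 array, coloured by group. The points form a line in liver, with r = 0.905, and a loose cloud in prefrontal cortex and amygdala.

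The order of the mice runs with the treatment. Within mice 1 to 20 and again within mice 21 to 40, each treatment holds a run of 5 consecutive numbers, so if the animals were handled or collected in that order, treatment and time within the day cannot be told apart. The runs come in the same order in both sets: saline, tesaglitazar, bezafibrate, then fenofibrate. What could be computed was whether the differences repeat in the 2 sets, and a repeat does not separate treatment from that order. In liver the differences from saline in mice 1 to 20 and in mice 21 to 40 were 1.43 and 1.54 for Ciart ILMN_3029489 with fenofibrate and 1.75 and 1.85 with bezafibrate, and for Usp2 1.94 and 1.69 with fenofibrate and 2.10 and 1.76 with bezafibrate. With tesaglitazar Usp2 differed by -0.45 in the first set and -1.07 in the second, and Dbp by -0.51 and -1.04. The fibrate differences were thus of similar size in both sets, and with tesaglitazar Usp2 and Dbp lay further below saline in the second. The liver differences are among the values that chose the members, so their repeat is a description and not a test.

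In prefrontal cortex the fenofibrate differences were 0.55 (limma, adjusted p = 0.0238) and 0.60 (adjusted p = 0.0486) for Ciart ILMN_3029489 and 0.36 (adjusted p = 0.0238) and 0.45 (adjusted p = 0.0464) for Dbp. Ciart ILMN_3102736 differed by 0.45 in each and passed in neither (adjusted p = 0.0588 and 0.171). The bezafibrate differences in prefrontal cortex were larger in the second set, at 0.38 and 0.71 for Ciart ILMN_3029489 and 0.25 and 0.46 for Dbp. In amygdala no member passed in either set, and the Usp2 difference with fenofibrate was 0.26 in the first and -0.05 in the second. Within a run of 5 numbers no member's slope on the place in the run passed by limma after adjustment over all probes, the lowest adjusted p being 0.768. In liver the slopes per place were 0.08 and 0.09 for the Ciart probes, 0.03 for Dbp and 0.15 ± 0.08 for Usp2 (limma, unadjusted p = 0.060 for Usp2). In prefrontal cortex they were 0.03 ± 0.01 for Dbp (limma, unadjusted p = 0.035), 0.03 and 0.05 for the Ciart probes (unadjusted p = 0.197 and 0.046) and -0.007 for Usp2. A smaller change of level along the run is therefore not excluded.

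**Figure D5:**
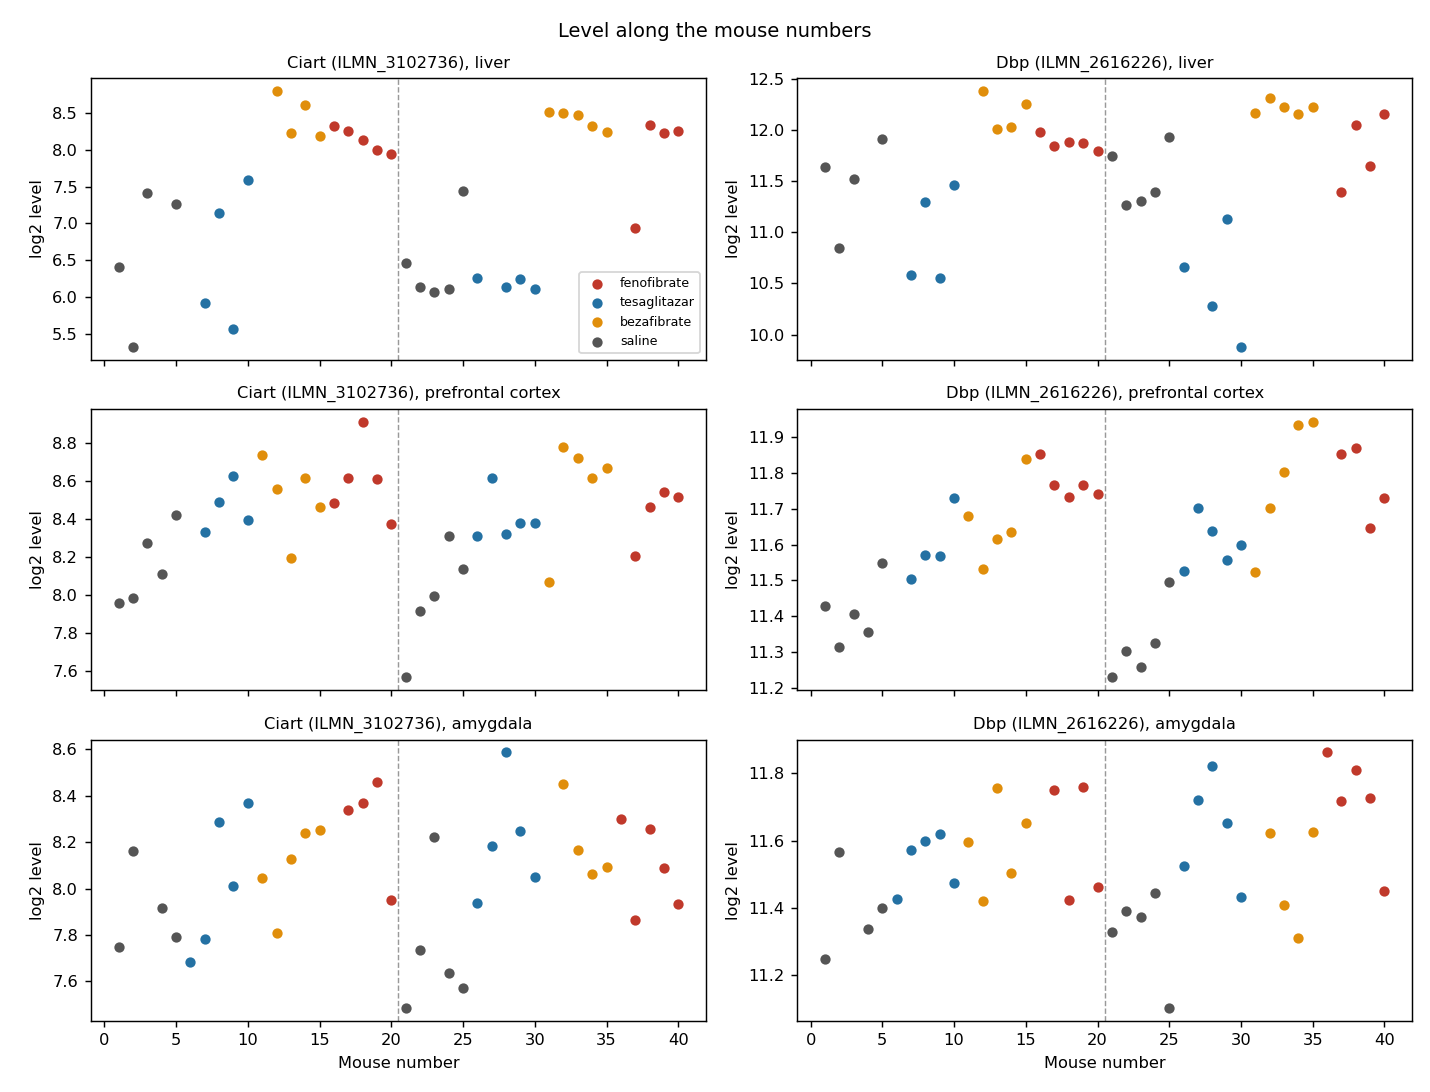
Log2 normalised intensity of Ciart ILMN_3102736 and Dbp against mouse number in the 3 tissues, each point 1 array coloured by treatment, with a dashed line between mice 20 and 21. In liver the runs of bezafibrate and fenofibrate mice stand above those of saline and tesaglitazar mice for Ciart in both sets.

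In bulk tissue a lower level can come from fewer cells that carry a transcript or from less RNA per cell, and these cannot be told apart. In prefrontal cortex the array of fenofibrate mouse 17 had a summed intensity of 5 choroid plexus marker probes of 29500, against 4469 on the next highest array, a saline one. Without it the fenofibrate differences from saline were 0.58 (limma, adjusted p = 0.000331) and 0.45 (adjusted p = 0.00547) for the Ciart probes, 0.41 (adjusted p = 0.000331) for Dbp and 0.11 for Usp2, so they were as large without that array. Dbp with fenofibrate minus tesaglitazar no longer passed (0.18, adjusted p = 0.0566). In amygdala 4 arrays, of 2 bezafibrate mice, 1 fenofibrate mouse and 1 tesaglitazar mouse, had such sums of 21053 to 30826, against 8631 on the next highest, a saline array, and their part in the amygdala values was tested only through leaving out single arrays.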

How the data were processed

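Liver, prefrontal cortex and amygdala of treated mice were profiled on 1-colour Illumina bead arrays. The deposited table gives raw bead intensity and a detection p-value per probe and array, both as exported by the authors per the file headers; of 120 array columns 8 matched no label and were not used. A further deposited table holds the authors' processed values on a log2-like scale, quantile normalised within tissue as judged from the values; its transform is not stated, its direction and order followed log2 raw intensity (lowest correlation 0.989 over arrays), column medians were 7.07, 7.29 and 7.37 for liver, prefrontal cortex and amygdala, and it served as an alternative. The submitters' processing notes name lumi, with no version. Per the labels' protocols RNA passed quality control and was amplified and biotin-labelled.

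Within each tissue, background was corrected with limma's nec from the detection p-values (offset 16), followed by quantile normalisation and log2. Probes with a detection p under 0.05 on at least 9 arrays were tested, which left 19773 for liver, 23079 for the prefrontal cortex and 23803 for the amygdala. A model with 4 group means was fitted with lmFit and eBayes (limma 3.58.1, R 4.3.3) and Benjamini-Hochberg adjusted over all tested probes, with a threshold of 0.05; a called probe passed it. Tissues were compared in 1 fit of 110 arrays normalised together (27635 probes). Correlations used permutation within groups (NumPy 2.4.6, with ranks from SciPy 1.17.1). The fit was tested on simulated data.

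Probe genes came from GEO's platform annotation, with 34885 probes having 1 symbol, 18 several and 10378 none; the 3 member genes were matched to RefSeq (GRCm38.p6). The members and the gene lists were chosen with earlier results of these data known. Named genes were the members, other probes of their genes, probes of the clock list, and the closest probes by correlation. The share of probes detected per array was 38.1% to 42.7% for liver, 44.0% to 49.8% for prefrontal cortex and 46.4% to 50.6% for amygdala, and mean intensity was 243 to 447; the number of arrays limits the precision. p-values measure the spread between mice. Same-numbered arrays of different tissues are assumed to come from 1 mouse, which the labels do not state in words; deviations of same-numbered samples had a median correlation of 0.0501 for liver and prefrontal cortex, 0.0174 for liver and amygdala and 0.0667 for the brain regions, and the mouse as a block was an alternative. No slide or scan batch is given in the sources used here. Alternatives tried besides this were median centring, leaving out the background correction, no detection filter, a trended robust variance, array weights, fits of 2 groups, a block for mice 1 to 20 and 21 to 40, each set alone, joint normalisation, and leaving out each array.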

Additional observations from a re-analysis of the deposited data

Results flagged for a closer look

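In 48 checks by Dixon's criterion, 4 probes in each of 12 groups of arrays, 4 values stood apart from the rest of their group. Chance flags about 5% of such checks, which are not independent, since the probes of an array vary together. Of these 3 came from the liver array of fenofibrate mouse 37, which was low for Ciart ILMN_3029489 at 6.61 (others 7.45 to 8.13), for Ciart ILMN_3102736 at 6.93 (others 7.94 to 8.33) and for Usp2 at 9.11 (others 10.19 to 10.62). On the axis that sets saline livers at 0 and the other fenofibrate livers at 1, that array lay at 1.18, against 0.762 to 1.09 for the others. Without it the fenofibrate differences from saline in liver were 1.62, 1.67, 0.40 and 1.98 for the Ciart pair, Dbp and Usp2. The other value was Usp2 in the prefrontal cortex of fenofibrate mouse 20, at 10.65 (others 10.90 to 11.13).

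The tesaglitazar difference of Dbp had opposite signs in liver and brain. In liver it differed from saline by -0.78, with every tesaglitazar array below the saline mean, and in prefrontal cortex by 0.23 (limma, adjusted p = 0.232) and in amygdala by 0.23 (adjusted p = 0.501), neither of which passed, with every tesaglitazar array above the saline mean. The difference between tissues was not tested, because the liver difference is among the values that chose the probe.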

How the results depend on the processing

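Of the compared values, 1135 kept their direction and side of the threshold, 15 lost a call, 11 gained one, 10 moved beyond the spread between mice and 1 reversed; the cause was not tested. Without background correction Ciart ILMN_3029489 in liver had 1.14 (bezafibrate minus saline), 0.95 (fenofibrate minus tesaglitazar) and 1.18 (bezafibrate minus tesaglitazar). The authors' values gave it 0.73 and 0.91 for the fibrates minus tesaglitazar and 0.69 and 0.88 for fenofibrate and bezafibrate minus saline, and gave Ciart ILMN_3102736 0.87 and 1.13 for the fibrates minus tesaglitazar and 1.07 for bezafibrate minus saline. In prefrontal cortex median centring gave called tesaglitazar differences of 0.55, 0.52 and 0.38 (both Ciart probes, Dbp). Dbp with fenofibrate minus tesaglitazar there lost its call with median centring (0.045), in mice 1 to 20 (0.18), in mice 21 to 40 (0.17) and when some single arrays were left out (0.16 to 0.19). Ciart ILMN_3102736 with fenofibrate had 0.45 in both sets, without a call. For saline levels, median centring gave -1.01 and -1.15 for the Ciart probes in liver minus amygdala, 0.24 for Dbp there, and 0.22, -0.027 and 0.30 for Ciart ILMN_3102736, Dbp and Usp2 in prefrontal cortex minus amygdala. The authors' values gave -0.60 and -0.72 for the Ciart probes and 0.18 for Dbp in liver minus amygdala, 0.17 for Dbp in liver minus prefrontal cortex (0.16 with the 2 doubtful livers as labelled), and 0.13 and 0.011 for Ciart ILMN_3102736 and Dbp in prefrontal cortex minus amygdala. Median centring raised the within-group r to 0.363 (Ciart ILMN_3029489 with Usp2) and 0.651 (Dbp with Usp2) in prefrontal cortex and 0.480 (Dbp with Usp2) in amygdala, where no background correction gave 0.339 with a call. The replicate block by mouse number gave -0.69, -0.70, 0.23 and -1.90 for the 4 probes in saline liver minus prefrontal cortex and changed no call.

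Counts of called probes varied more: in liver 3485 to 6534 with fenofibrate and 65 to 669 with bezafibrate (main 5937 and 632), in prefrontal cortex 54 to 1606 with fenofibrate (main 1381), 0 to 14 with tesaglitazar and 0 to 3 with bezafibrate (main 3), and in amygdala up to 1360 with fenofibrate, 979 with tesaglitazar and 814 with bezafibrate when only 1 set of mice was used (main 0). Of fenofibrate calls, 48.9% in liver and 42.7% in prefrontal cortex were higher, against 74.6% and 96.3% with median centring. Raw intensity over all tissues was 100.5 to 552 for the Ciart probes and 1122 to 5651 for Dbp.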
